A study of Mus musculus with 8 samples.

Results

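The transcripts described here are those of 8 genes, Zscan4d, Zfp352, Eif1ad7, Usp17lb, Tdpoz2, Tdpoz4, Zfp820 and Sp110, grouped as leftover 2-cell stage transcripts. They were chosen with the differences between treated and control embryos known, so their own differences are given as a description, with no test. RNA-seq had been made from wild-type mouse embryos cultured in KSOM at the 8-cell and morula stages. Control embryos were compared with embryos kept from the 2-cell stage on in 100 μM trimetazidine (TMZ), which inhibits a thiolase needed to break down long-chain fatty acids. Each of the 4 groups had 2 libraries, which the study calls biological replicates; the labels do not say whether they came from separate collections of embryos, so the spread between them, and every P below, may reflect technical variation only. The methods of the study give a higher number of biological replicates, and how those relate to the libraries is not stated. The 8-cell controls are numbered 1 and 2. For the 8-cell TMZ libraries the table repeats one header, and they are named A and B by column, which links neither to a replicate number. No 2-cell embryos are among the samples.

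The values are FPKM, the fragments of a gene scaled to its length and to the size of the library. Library totals recovered from the values were 31672356 to 64814423 fragments, TMZ library B of the 8-cell stage being the deepest and A holding 43035090. The deposited tables name no genes. Names were therefore inferred from the order of the entries and from gene lengths worked out from the values, set against the mouse annotation, with a posterior of 0.95 or more required. Of 31899 entries at the 8-cell stage 25359 got a gene, and of 29202 at the morula stage 22596 did. All 8 members got an entry in the 8-cell table and 7 in the morula table. The lowest posterior kept was 0.993, for Sp110 at the morula stage, and Zscan4d at the morula stage lay just outside with 0.938; its morula values are given for orientation only. The length worked out differed from the annotated one for Usp17lb (1561 against 1905 bases), Zfp820 (3718 against 3966) and Sp110 (6781 against 6830). For the other members the lengths were equal. With the members taken out of the annotation, 1 of 8 of their 8-cell entries and 2 of 7 morula entries went to another gene. This shows how often an entry is misnamed where its own gene is missing from the annotation. It does not measure the error of names given with the gene present, and single names may still be wrong.

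The mouse genome is first transcribed broadly at the 2-cell stage, and a set of genes is switched on there and largely silenced again by the following divisions. Many of them lie in clusters of near-identical copies, and they are switched on again in rare embryonic stem cells that resemble 2-cell embryos. Zscan4d, on chromosome 7 (GRCm39 chr7:10895301-10900111, minus strand), encodes a SCAN domain zinc finger protein, and the Zscan4 genes are the classical markers of this state. Zfp352 (chr4:90107057-90113939, plus strand) and Zfp820 (chr17:22035857-22064992, minus strand) encode zinc finger proteins. Eif1ad7 (chr12:88237410-88241270, minus strand) belongs to a cluster of genes related to the translation initiation factor eIF1A. Usp17lb (chr7:104489120-104491810, minus strand) encodes a deubiquitinase. Tdpoz2 (chr3:93558849-93559993, minus strand) and Tdpoz4 (chr3:93703705-93704817, plus strand) encode proteins with TRAF and POZ domains, and Sp110 (chr1:85498456-85526604, minus strand) encodes a nuclear body protein related to Sp100. Each is protein-coding in the annotation. Of the 31-base stretches of their exons, 92.7% of those of Eif1ad7 and 84.9% of those of Sp110 also occur elsewhere in the genome, against 19.0% for Zfp820. For Tdpoz2, Zscan4d and Tdpoz4 the shares were 67.5%, 66.5% and 64.6%, and for Usp17lb and Zfp352 29.4% and 26.6%. How fragments that fit several copies were counted is not given in the sources used here, so the values of the copy-rich genes may hold fragments of their relatives.

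The sequences just upstream of 3 members are shown. Zscan4d and Usp17lb are the members with a promoter entry whose TMZ libraries both stood above both controls in 8-cell embryos, and Zfp352 had the widest gap between the 8-cell controls. They are the 250 bases before the start, 5′ to 3′ on the strand of the gene, from RefSeq (GRCm38.p6, a build other than that of the gene positions above). The stretch of Zfp352 lies at chr4:90218570-90218819 on the plus strand, that of Zscan4d at chr7:11166149-11166398 and that of Usp17lb at chr7:104842584-104842833, both on the minus strand. In Zfp352 capitals mark TAATCC, the core that OTX and OBOX homeobox factors recognise. In Zscan4d and Usp17lb they mark the letters of the TATA box, TATAAA.
Zfp352: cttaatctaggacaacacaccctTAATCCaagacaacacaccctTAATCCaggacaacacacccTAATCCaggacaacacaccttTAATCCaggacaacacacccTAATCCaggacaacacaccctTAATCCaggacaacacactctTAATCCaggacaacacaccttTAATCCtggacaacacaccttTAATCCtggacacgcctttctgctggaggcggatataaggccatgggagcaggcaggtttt
Zscan4d: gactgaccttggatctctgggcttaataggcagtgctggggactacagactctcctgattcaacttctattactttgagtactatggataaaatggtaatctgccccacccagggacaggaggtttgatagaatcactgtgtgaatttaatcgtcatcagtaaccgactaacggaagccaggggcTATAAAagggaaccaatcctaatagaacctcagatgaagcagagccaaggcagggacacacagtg
Usp17lb: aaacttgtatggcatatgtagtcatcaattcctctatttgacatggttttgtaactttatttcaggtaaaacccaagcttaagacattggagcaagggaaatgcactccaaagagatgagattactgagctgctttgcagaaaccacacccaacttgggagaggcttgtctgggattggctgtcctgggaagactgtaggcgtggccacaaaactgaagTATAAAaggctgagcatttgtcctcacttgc

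Promoter entries of 300 bases (250 before and 50 after the start) were found for 6 of the 8 members, with 7 starts, 2 of them for Sp110. Eif1ad7 and Tdpoz2 had none. TAATCC was present 9 times upstream of Zfp352, in a tandem array, and no other of the 32851 mouse promoters held as many; 0.359% held 2 or more. It was also present at both starts of Sp110, and 7.06% of all promoters held it on either strand. TATAAA was found in Zscan4d and Usp17lb only among the members, beginning 65 and 31 bases before the start, against 13.6% of all promoters. GGGCGG (a GC box) was found at 1 start of Sp110 and in 35.7% of all promoters, and CACGTG (an E-box) in Zfp820 and in 7.15%. These matches describe letters in the windows searched and say nothing of binding.

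In 8-cell embryos, 3 of the 8 members had both TMZ libraries above both control libraries, namely Zscan4d, Eif1ad7 and Usp17lb, and no member had both below. Over all 10021 entries that averaged 1 FPKM or more, 8.09% stood above and 29.6% below. The members were chosen on this contrast, so nothing is read from the count. The same 3 had a difference of the log2 means above 0.5 (6.02% of all entries), and none was below -0.5 (22.5%). Zscan4d, with a control mean of 0.254 FPKM, averaged 1 FPKM or more only through its TMZ libraries. It could therefore not have stood below, and these shares are no measure for it.
Zscan4d had 0.345 and 0.163 FPKM in the controls and 3.89 and 2.45 FPKM in TMZ libraries A and B. In fragments, the smallest whole numbers the values allow, these were 32 and 12 against 380 and 361. The means were 0.254 ± 0.129 and 3.17 ± 1.01 FPKM (SD, n = 2), a 12.5-fold ratio and a difference of 1.72 on the log2(FPKM + 1) scale, which is used for every difference below and understates the change of low genes. This gene was nearly silent in control 8-cell embryos and low in treated ones, and both treated libraries shared the higher level.
Eif1ad7 stood at 6.65 and 2.27 FPKM in the controls and at 9.70 and 14.6 FPKM in TMZ libraries A and B, a 2.73-fold ratio of the means and a difference of 1.37. The controls themselves lay 1.22 apart on this scale, and TMZ library A was not far above control 1. Usp17lb stood at 5.00 and 11.7 FPKM in the controls and at 13 and 22.1 FPKM in A and B, a ratio of 2.10 and a difference of 1.04. Here the lower TMZ library was only slightly above control 2, and the controls lay 1.08 apart.

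Tdpoz4 and Sp110 were divided by library rather than by group. Tdpoz4 had 18.6 and 18.7 FPKM in the 8-cell controls, 5.74 in TMZ library A and 45.3 in B. Sp110 had 14.8 and 11.9 FPKM in the controls, 5.99 in A and 24.9 in B. In both genes A lay below both controls and B above both, so the groups overlap and the group means, 25.5 ± 28.0 FPKM for Tdpoz4 and 15.4 ± 13.4 FPKM for Sp110 in TMZ embryos (SD, n = 2), describe neither library. A gap above 1 on the log2 scale between A and B was found in 2 of the 8 members and in 15.5% of all tested entries, and between the 8-cell controls in 3 of 8 and in 6.01%.
Zfp352 was the reverse case, with one high control. It had 12 FPKM (1116 fragments) in control 1 and 0.243 FPKM (18 fragments) in control 2, and 1.67 and 2.40 FPKM in TMZ libraries A and B. Both treated libraries therefore lay between the controls, and the difference of the means was -0.42. The sign rests on the scale and on control 1: the difference was 0.05 with a pseudocount of 0.1 in place of 1, and 1.28 without control 1.
Tdpoz2 had 2.69 and 4.14 FPKM in the controls and 3.65 and 3.73 FPKM in A and B, within the span of the controls. Zfp820, the most abundant member per length, had 90.6 and 50.9 FPKM in the controls and 91.8 and 83.7 FPKM in A and B. Control 2 alone was low, and the groups overlap.

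**Figure D1:**
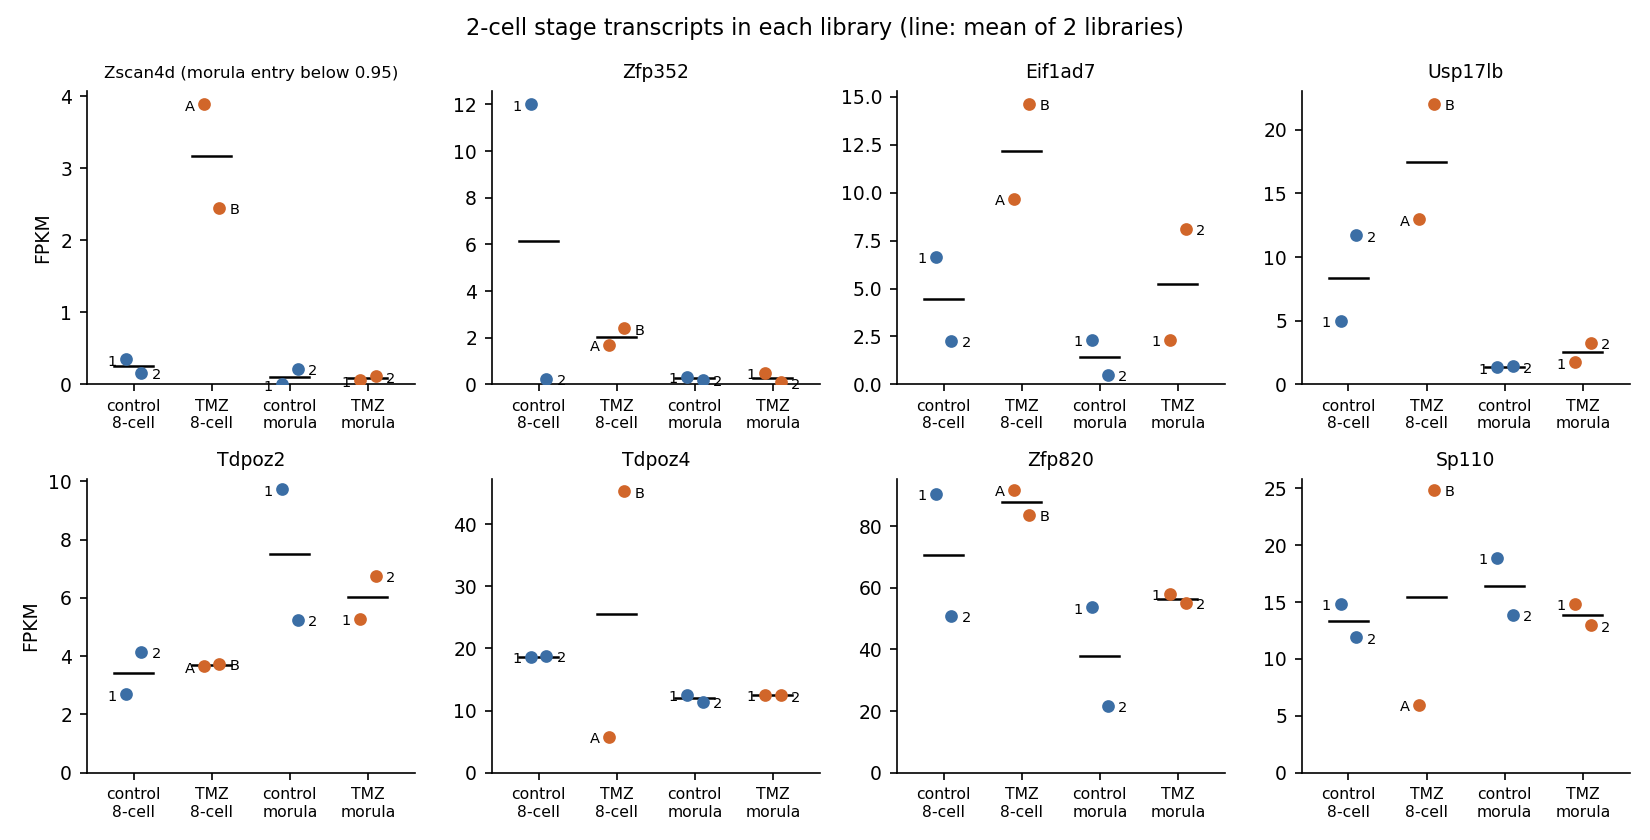
FPKM of each of the 8 genes in the 8 libraries, with a linear axis of its own for each gene. Points are libraries (blue control, orange TMZ, marked by number or letter) and lines are means of 2. At the 8-cell stage both TMZ points lie above both control points for Zscan4d, Eif1ad7 and Usp17lb, whereas A and B fall on opposite sides of the controls for Tdpoz4 and Sp110.

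In morulae 6 of the 7 named members averaged 1 FPKM or more, and 2 of these 6, Usp17lb and Zfp820, had both TMZ libraries above both controls, against 22.3% of 9685 entries. None had both below, against 33.3%. A difference above 0.5 was found for these 2 and Eif1ad7 (10.3% of entries), and none below -0.5 (15%).
Usp17lb had 1.32 and 1.41 FPKM in the controls and 1.72 and 3.28 FPKM in TMZ replicates 1 and 2, a ratio of 1.83 and a difference of 0.53. Zfp820 had 53.6 and 21.8 FPKM in the controls and 57.9 and 55.1 FPKM in the TMZ replicates, a difference of 0.70. The margin over control 1 was small in both TMZ libraries, and control 2 was the low one of its pair. Eif1ad7 had 2.32 and 0.486 FPKM in the controls and 2.30 and 8.12 FPKM in the TMZ replicates. Its difference of 1.31 drew on both the high TMZ replicate 2 (473 fragments) and the low control 2 (30 fragments). It was 0.57 without that TMZ replicate and 0.73 without that control. TMZ replicate 1 (139 fragments) was level with control 1 (141 fragments).
The other named members overlapped between the groups. Tdpoz4 was nearly even, with 12.5 and 11.4 FPKM in the controls and 12.6 and 12.5 FPKM in the TMZ replicates. Tdpoz2 had 9.73 and 5.26 FPKM against 5.27 and 6.76 FPKM, and Sp110 had 18.9 and 13.9 FPKM against 14.8 and 13 FPKM. Zfp352 was low everywhere, at 0.319 and 0.183 FPKM in the controls and 0.496 and 0.0832 FPKM in the TMZ replicates. The entry nearest to Zscan4d had at most 0.210 FPKM in any morula library.

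The name leftover implies a level that declines with development, and the control embryos were compared for this. The 2 tables were normalized separately, so the change from 8-cell to morula controls is a description. Usp17lb went from 5.00 and 11.7 to 1.32 and 1.41 FPKM, a difference of -1.88, and Tdpoz4 from 18.6 and 18.7 to 12.5 and 11.4 FPKM, a difference of -0.60. These were the 2 of 7 members with both morula controls below both 8-cell controls, against 32.4% of the 8282 genes named at both stages that averaged 1 FPKM or more. Differences of the means were also negative for Zfp352 (-1.69), Eif1ad7 (-1.17) and Zfp820 (-0.97), but libraries of the 2 stages overlapped. That of Zfp352 rests on 8-cell control 1, since control 2 already stood at its morula level.
Tdpoz2 went against the name: both morula controls, with 9.73 and 5.26 FPKM, were above both 8-cell controls, with 2.69 and 4.14 FPKM, a difference of 0.91, as for 22.2% of all genes. Sp110 differed by 0.27 with overlapping libraries. The median difference was -0.97 over the 7 members and -0.07 over all 8282 genes. Among the comparison lists, both morula controls were lower for 6 of 12 other 2-cell stage genes (median -0.31) and for 17 of 24 oocyte-carried transcripts (median -0.85). Genes of the lists entered by their mean over all 8 libraries, so a gene could enter through the stage where it was high. Zfp352, with a mean of 0.251 FPKM in morula controls, is such a case. Of the oocyte list, 20 genes averaged 1 FPKM or more among the morula libraries. These counts and medians are a description and support no decline.

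The treatment differences and the change with stage share the control libraries, so that a high or low control moves both, and their signs are not read against each other. Side by side, Usp17lb had treatment differences of 1.04 in 8-cell embryos and 0.53 in morulae, and a difference of -1.88 between the stages in controls. Eif1ad7 had 1.37 and 1.31 beside -1.17, and Zfp820 had 0.36 and 0.70 beside -0.97. The values of Zfp820 rest on control 2 at each stage, since without it they were -0.05 and 0.07. Tdpoz4 had -0.16 and 0.06 beside -0.60, and Zfp352 had -0.42 and 0.03 beside -1.69. Scaling the libraries by their median ratio made the 8-cell difference of Tdpoz4 positive (0.11), and that of Sp110 likewise (0.17). Tdpoz2 and Sp110, whose control means were higher in morulae, had treatment differences of 0.11 and -0.09 in 8-cell embryos and of -0.23 and -0.21 in morulae. Between treated 8-cell embryos and treated morulae, Usp17lb differed by -2.40, Eif1ad7 by -1.24 and Zfp820 by -0.62. More embryos at an earlier stage within a treated library and more RNA of these genes per embryo cannot be told apart in bulk RNA.

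**Figure D2:**
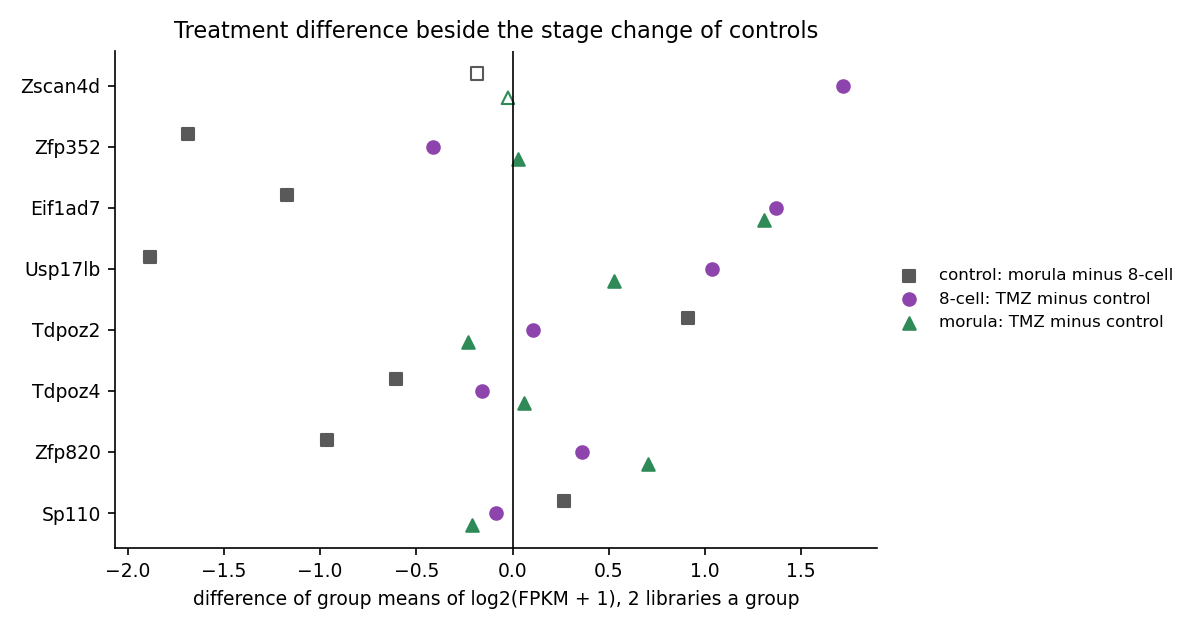
Differences of group means of log2(FPKM + 1), 2 libraries a group, for each gene on the vertical axis. Squares are morula minus 8-cell in controls, circles and triangles TMZ minus control at the 8-cell and morula stages, and open symbols use the Zscan4d morula entry, whose posterior was below 0.95. The squares run from -1.88 for Usp17lb to 0.91 for Tdpoz2 among the 7 genes named at both stages, and the squares and the other symbols share control libraries.

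Over the 8 libraries the members did not follow one profile. The correlation (Pearson) of each of the 7 genes named in both tables with the mean standardized profile of the other 6 ran from -0.55 for Tdpoz2 and 0.27 for Sp110 to 0.59 for Tdpoz4 and 0.66 for Eif1ad7. The mean profile was highest in 8-cell TMZ library B (1.08 SD units), followed by 8-cell control 1 (0.42), and lowest in morula control 2 (-0.86). The genes with the most similar profile were Msh6 of DNA mismatch repair (r = 0.96), Amd1 of polyamine synthesis (0.95), the ion channel Trpm7 (0.95), the histone demethylase Kdm6a (0.95) and Erln (0.94), picked from the 8282. The points share library and depth, and B was both the deepest library and the highest in this profile.

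The members' relatives are all other named genes of 4 of their families, and these families follow from the choice of the members. Relatives can share fragments with the members and with each other. The counts of relatives below are therefore a description, and nothing is read from them. At the 8-cell stage 30 other genes of the Zscan4, Usp17l, Eif1ad and Tdpoz families got an entry, of which 8 had a mean of at least 1 FPKM. Both TMZ libraries were above both controls for 14 of the 30 and below for 1, Eif1ad19. Among entries above 0 and under 1 FPKM, where most of them lie, 7.02% stood above and 17.2% below. Eif1ad3, Eif1ad13 and Eif1ad16, which were above, averaged 1 FPKM or more, where the shares were 8.09% and 29.6%. Eif1ad13 and Eif1ad16 reached that level only through their TMZ libraries.
In the Usp17l family, Usp17lc, Usp17ld and Usp17le were above, and the summed level of the 5 relatives was 0.352 and 0.547 FPKM in the controls and 1.28 and 1.36 FPKM in TMZ libraries A and B. In the Zscan4 family, Zscan4f and the pseudogenes Zscan4-ps2 and Zscan4-ps3 were above, on few fragments. Zscan4f had 4 fragments in B. Zscan4-ps2 was level there, with 0.0271 FPKM (4 fragments) against 0.0270 FPKM (2 fragments) in control 2. The sum of the 6 relatives was 0.0644 and 0.766 FPKM in the controls against 1.24 and 0.800 FPKM. All named relatives in these 2 families averaged under 1 FPKM.
The Eif1ad family was more abundant, and 7 of its 12 relatives were above both controls: Eif1ad2, Eif1ad3, Eif1ad6, Eif1ad13, Eif1ad16, Eif1ad17 and Eif1ad18. The sum was 10.6 and 15.2 FPKM in the controls, 17.8 in A and 43.4 in B. Eif1ad8 showed how far A and B could part, with 0.186 FPKM in A and 11.5 FPKM in B, against 2.61 and 0.789 FPKM in the controls. The Tdpoz family followed Tdpoz4, with a sum of 25.6 and 18.5 FPKM in the controls, 17.2 in A and 52.7 in B, and only the pseudogene Tdpoz9-ps1 above in both.
In morulae 4 of 29 relatives were above both controls and 6 below, against 11.1% and 18.6% of entries under 1 FPKM. Of those above, Eif1ad3 and Eif1ad12 averaged 1 FPKM or more, where the shares were 22.3% and 33.3%. Eif1ad3, Eif1ad12, Tdpoz5 and Tdpoz7 were above. Eif1ad8, Eif1ad11, Eif1ad16, Eif1ad18, Eif1ad19 and Tdpoz3 were below. Many of these rest on few fragments. Tdpoz5 had 0 and 1 in the controls and 4 and 1 in TMZ replicates 1 and 2, and Tdpoz7 had 0 and 1 against 3 and 7. Of those below, Eif1ad11, Eif1ad16, Eif1ad18 and Eif1ad19 had at most 2 fragments in either TMZ replicate. The summed level of the 12 Eif1ad relatives was 9.31 and 2.26 FPKM in the morula controls and 7.15 and 8.76 FPKM in the TMZ replicates, and the groups overlap.

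**Figure D3:**
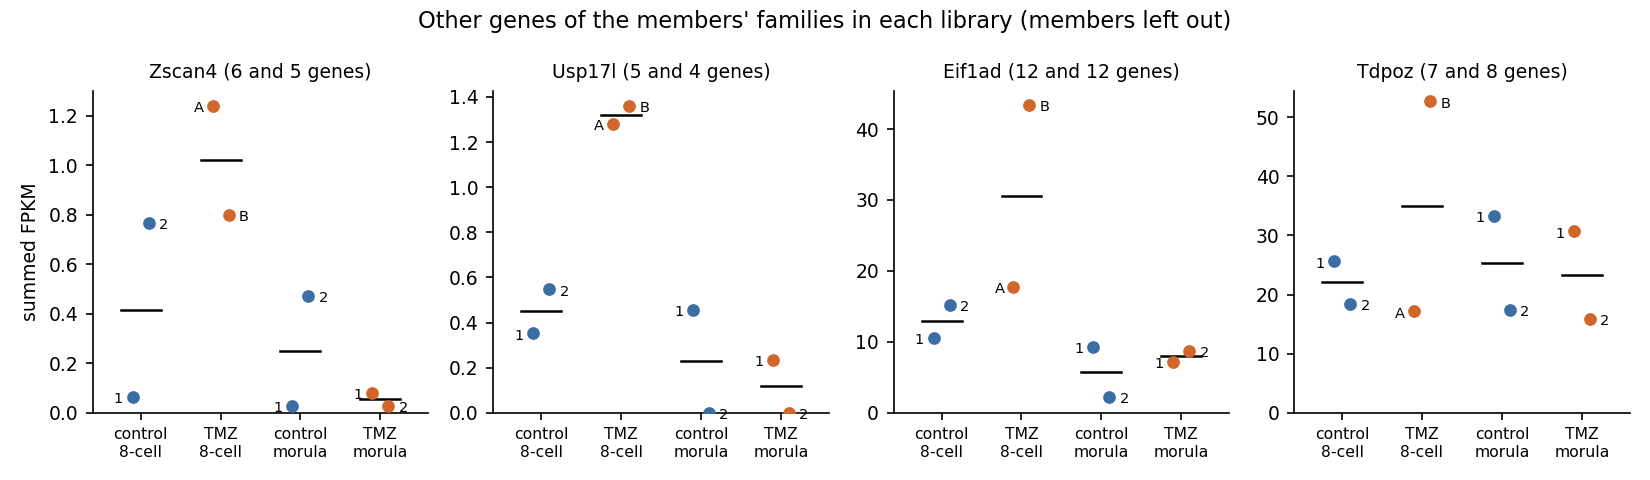
Summed FPKM of the other genes of each member's family in the 8 libraries, members left out, on a linear axis per family; the number of genes at the 8-cell and morula stages is in each title. Points are libraries and lines means of 2. Both TMZ points lie above both control points at the 8-cell stage for Usp17l, Eif1ad and Zscan4, and A and B lie far apart for Eif1ad and Tdpoz.

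Other genes of the 2-cell programme were tested by limma on log2(FPKM + 1) over all entries, and called where the unadjusted P was under 0.05 and the log2 fold change above 0.5 or below -0.5. No 8-cell entry and 3 morula entries passed an adjusted p of 0.05 (limma, Benjamini-Hochberg), with 632 and 1900 at an unadjusted P under 0.05, and limma voom on recovered fragments gave 0 and 3, with 444 and 2118. The calls below are therefore of the unadjusted kind. The background was 1.35% called higher and 4.96% lower at the 8-cell stage and 7.16% and 10.7% at the morula stage. The median of all entries was -0.19 and -0.08 and moved to 0.05 and 0.03 under median-ratio scaling, which raised the share of calls that were higher from 21.4% to 53.4% and from 40% to 59.8%.

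Of 52 other 2-cell stage genes 37 were named and 17 tested at the 8-cell stage. Of these 17, 2 rose, none fell by limma (none by voom either), and the median was 0.36. Both that rose were relatives of Eif1ad7, and both had a control mean under 1 FPKM, as did 1 other gene tested. Such genes passed the filter only through their TMZ libraries, whose mean had to be the higher one, so the count and the median are given as a description and support nothing. Eif1ad16 had 0.376 and 0.0473 FPKM in the controls and 3.36 and 0.949 FPKM in TMZ libraries A and B, a log2 fold change of 1.28 ± 0.46 (SE, adjusted p = 0.77 by limma). Eif1ad13 had 0.521 and 0.369 against 2.36 and 1.57 FPKM, a log2 fold change of 1.02 ± 0.37 (adjusted p = 0.77 by limma). Of the 4 fits with a library left out, Eif1ad16 was called in 2 and Eif1ad13 in 1, and neither was called without control 2 or without TMZ library A. The 5 genes of the list called higher without A are others.
In morulae 12 were tested, 3 rose, 1 fell, and the median was 0.33. Of the 3, Eif1ad3 and Obox5 had a control mean under 1 FPKM and entered through their TMZ libraries, and the 1 that fell, Tmem92, entered through its controls. This count and median too are a description, and with no filter on level 1 gene rose. Eif1ad12, at 1.78 and 0.903 FPKM in the controls and 4.57 and 4.75 in the TMZ replicates, rose by 1.30 ± 0.26 (SE, adjusted p = 0.16 by limma). Eif1ad3 rose by 1.02 ± 0.31, and Obox5, a homeobox gene of oocytes and early embryos, by 1.21 ± 0.48, from 0.454 and 1.0 to 5.63 and 1.36 FPKM. Tmem92, a transmembrane protein gene used as a marker of 2-cell-like cells, fell from 2.34 and 2.66 to 0.293 and 0.289 FPKM, by 1.44 ± 0.21 on the log2 scale (SE, adjusted p = 0.15 by limma). The calls of Eif1ad12 and Tmem92 held with each library left out in turn. Obox5 was called in 1 of those 4 fits, being lost without either control and without TMZ replicate 1. Eif1ad3 was called in 2, being lost without control 2 and without TMZ replicate 2. Without control 2 the list had 1 rise, and scaling gave 5.

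Transcripts that the oocyte leaves to the embryo were tested at both stages, and the difference between the stages was not tested. In 8-cell embryos none of 29 tested rose by limma, or by voom, and 2 fell, near the background of 4.96%, with a median of -0.23 against -0.19 over all entries. Btg4, which aids the decay of maternal mRNA, fell from 7.09 and 7.48 FPKM to 1.53 and 2.12 in TMZ libraries A and B, a log2 fold change of -1.56 ± 0.38 (SE). Tcl1, a coactivator of AKT abundant in oocytes, had a log2 fold change of -1.26 ± 0.50, and its call was lost without control 2, without TMZ library A and under scaling. Without TMZ library B 6 of the list were called lower.
In morulae 8 of 20 tested rose and 1 fell (Npm2), with a median of 0.50. Of the 20, 5 had a control mean under 1 FPKM and were tested through their TMZ libraries alone, among them Bcl2l10, Oosp3 and Btg4 of the 8 that rose, so the count and the median are no support for a direction. With no filter on level 4 rose. Bcl2l10, a BCL2 family gene of oocytes, had 0.245 and 0.867 FPKM in the controls and 3.90 and 1.99 FPKM in the TMZ replicates, a log2 fold change of 1.33 ± 0.33 (SE, adjusted p = 0.17 by limma). Omt2a rose by 1.09 ± 0.27, Oog3 by 1.03 ± 0.40, Tcl1 by 0.96 ± 0.32 and Oosp3 by 0.95 ± 0.29. With 1 morula library left out at a time the list had 4 to 9 rises, 4 without TMZ replicate 1 and 5 without control 1. Bcl2l10 and Omt2a were called each time. Oosp3 was called in 3 of the 4 fits, being lost without control 2, and Tcl1 in 2, being lost without control 2 and without TMZ replicate 1. Oog3 was called only without control 2.

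Regulators of the 2-cell programme did not pass the threshold at the 8-cell stage in either direction, 0 of 34 by limma, with none at an unadjusted P under 0.05; voom called 1 lower. In morulae 7 of 33 fell, against 10.7% of all entries, and none rose (none by voom), against 7.16%. They included Nelfa, a subunit of the negative elongation factor that acts as an activator of 2-cell genes, by 0.75 ± 0.25 (SE), the H3K9 methyltransferases Setdb1 and Ehmt2 by 0.69 ± 0.21 and 0.57 ± 0.22, the ribosome assembly factor Nop53 by 0.61 ± 0.23 and the SUMO ligase Pias4 by 0.56 ± 0.22 on the log2 scale. Setdb1 and Ehmt2 are repressors of the programme. In each regulator named here both TMZ libraries lay below both controls, a condition for being named. That held for 33.3% of all morula entries. Each of these calls was nevertheless lost in some of the fits with 1 library left out. Such fits have less power, and why the calls were lost was not tested. Setdb1 also entered the test through its controls alone. Under median-ratio scaling 2 genes of the list were called lower, Nelfa and Setdb1. With 1 library left out 1 to 4 were, with 1 without control 2, 1 without TMZ replicate 2, 2 without TMZ replicate 1 and 4 without control 1.

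Markers of the embryo itself were tested in the same way. In morulae 5 of 11 tested fell, against 10.7% of all entries, and 1 rose, Sall4, by 0.56, against 7.16%. These calls are unadjusted, and none of the 11 passed an adjusted p of 0.05 by limma. For Pou5f1 the adjusted p was 0.17 and for Nanog 0.16 (limma). Pou5f1, a pluripotency factor, fell from 30.2 and 42.4 to 19.0 and 11 FPKM, by 1.25 ± 0.29 on the log2 scale (SE). Krt8, a keratin of the outer cells, fell by 1.21 ± 0.27 and Nanog by 0.98 ± 0.18, and Klf5 and Tfap2c by 0.67 ± 0.21 and 0.63 ± 0.22. The calls of Pou5f1, Krt8 and Nanog held with each library left out in turn, while Klf5 was called in 2 and Tfap2c in 1 of the 4 fits. Among 8-cell embryos none of 12 passed by limma, with none at an unadjusted P under 0.05, and voom called 0 higher and 0 lower. The summed level of the embryo markers was 5648 to 6026 FPKM in 8-cell controls and 6992 to 7300 FPKM in TMZ libraries, most of it Dppa5a. Sox2 had at most 0.120 FPKM in any library.
Cumulus cells are the other cell type that could adhere to collected embryos. Of their 14 markers 9 were named at each stage, of which 6 were under 0.1 FPKM in all 8-cell libraries and 4 in all morula libraries. Fshr and Has2 were at 0 in every 8-cell library but B. Of those named, only Amhr2 and Gja1 reached 1 FPKM in every library, and Gja1 is made by embryos too. The summed level was 63.7 and 67.4 FPKM in 8-cell controls, 72.6 in A and 42.4 in B, and 54.0 to 64.5 FPKM in the morula libraries. Amhr2 fell at the 8-cell stage by 0.91 ± 0.35 on the log2 scale (SE, adjusted p = 0.77 by limma), a call lost under scaling and without either control. The part of either marker list in the members' values was not tested.

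**Figure D4:**
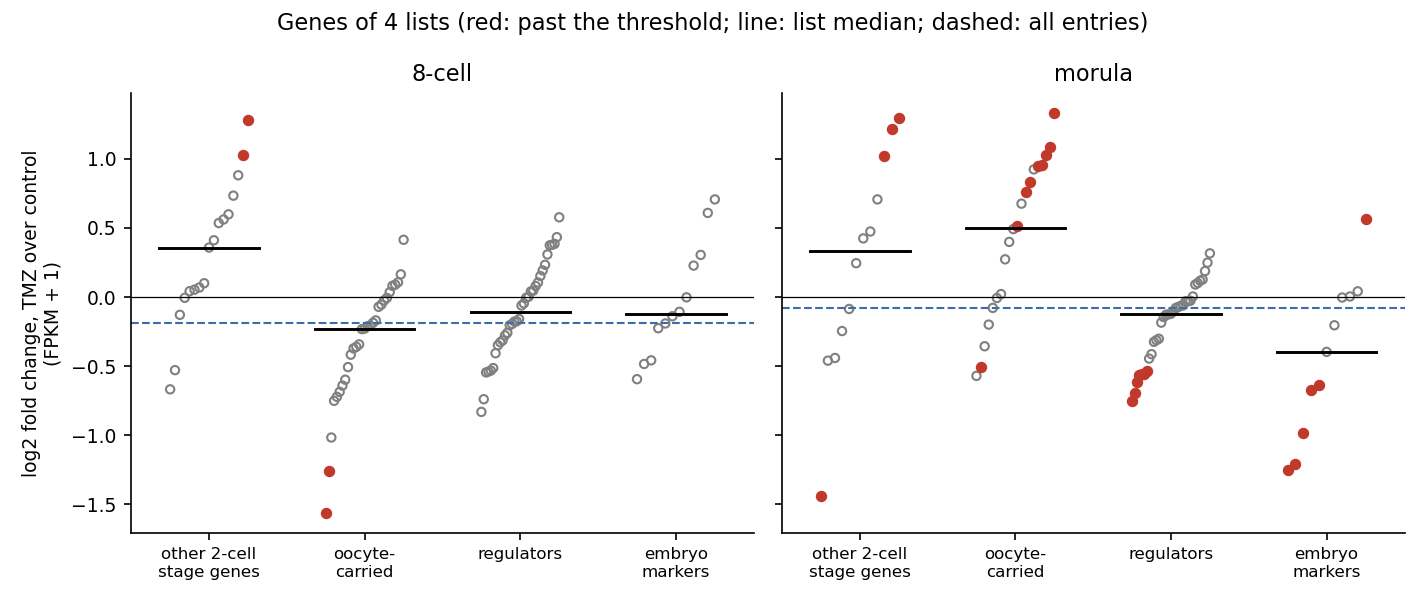
Log2 fold changes (TMZ over control, FPKM + 1) of the tested genes of 4 lists at the 8-cell and morula stages. Each point is a gene, red where it passed the threshold, the line is the list median and the dashed line the median of all entries. The medians of the other 2-cell stage genes are 0.36 and 0.33 and that of the oocyte list in morulae 0.50; genes tested through their TMZ libraries alone are among the points of each.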

How the data were processed

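RNA from control and TMZ-treated mouse embryos was amplified with a full-length mRNA kit, and 8 libraries were deposited, 2 in each of 4 groups. Per the labels, the authors used fastp 0.23.4, STAR 2.7.9a on GRCm39 and featureCounts 2.0.6. The authors deposited FPKM, one table per stage, so their count test could not be repeated. The annotation release, strand setting and counting of multi-mapping fragments are not given in the sources used here. FPKM corrects for length and depth, not for composition.

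FPKM values are whole multiples of 1 fragment, which gave library totals exactly and lengths up to a whole factor. A pair hidden Markov model (Python 3.11.15, numba 0.67.0) aligned these lengths to exonic lengths of GENCODE genes (GRCm39) in order of Ensembl identifier, using transcripts numbered up to 240000. Of 20112 genes named at both stages, 18 had incompatible lengths and were dropped. With 2000 decoy genes inserted, the scaled decoy rate was 0.604% and 0.643%, and of the expressed entries of removed genes, 30 of 350 and 36 of 372 were given to another gene.

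TMZ and control were compared within each table by limma 3.58.1 (R 4.3.3; limma-trend on log2(FPKM + 1), mean of at least 1 FPKM), tested on simulated data. The members and gene lists were chosen with earlier results of these data known. Genes named are the members, their named relatives, up to 5 per list and stage of those called with groups that do not overlap, by size, and the 5 most similar to the members' profile; Sall4, Npm2, Sox2, Dppa5a and the cumulus genes other than Amhr2 were named after their values were seen. The motif set and the calls of named genes under each alternative were likewise chosen after the data were seen. Alternatives were a pseudocount of 0.1, no filter or 5 FPKM, median-ratio scaling, voom, a posterior of 0.99, a replicate block and leaving out each library.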

Additional observations from a re-analysis of the deposited data

Results flagged for a closer look

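In 7 of the named genes, and in none of the 8 members, both TMZ libraries lay on opposite sides of both controls at the 2 stages. The difference between the stages was not tested. Of all entries averaging 1 FPKM or more, 8.09% stood above and 29.6% below at the 8-cell stage. In morulae the shares were 22.3% and 33.3%. How many of all genes changed sides was not counted, so nothing is read from the 7. Differences are TMZ minus control on the log2(FPKM + 1) scale. Of the oocyte-carried transcripts, 4 were lower in treated 8-cell embryos and higher in treated morulae: Btg4 with -1.56 and 0.84, Tcl1 with -1.26 and 0.96, Oosp3 with -0.69 and 0.95, and Oog3 with -0.60 and 1.03. Obox5 had the same pattern, with -0.53 and 1.21. Eif1ad16 and Eif1ad18, relatives of Eif1ad7, had the opposite pattern, with 1.28 and -0.26 and with 0.53 and -0.091. Eif1ad18 was under 1 FPKM in every library. Eif1ad16 was so in every morula library, with 16 and 4 fragments in the controls and 0 and 2 in the TMZ replicates.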

How the results depend on the processing

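With 2 libraries a group, single libraries decide many values. At the 8-cell stage 3 members had a difference above 0.5; this became 5 without TMZ library A, and 3 to 5 over the leave-one-out settings. At the morula stage the 3 such members became 2 to 3. The 5 members whose morula minus 8-cell difference of means in controls was below -0.5 became 4 to 5. Other settings left these counts within 1.5 times. The 2 calls of rises among other 2-cell genes at the 8-cell stage became 0 at 5 FPKM (0 to 5 with a library left out: 0 without control 2, 5 without TMZ library A), and the 0 falls 0 to 2. At the morula stage the 3 rises became 1 without a filter, 1 at 5 FPKM and 5 under scaling (1 to 4 with a library left out, 1 without control 2), and the 1 fall became 0 at 5 FPKM and 2 by voom (1 to 2). For the oocyte list at the 8-cell stage the 2 falls became 0 at 5 FPKM and 1 under scaling (2 to 6, 6 without TMZ library B), and the 0 rises 0 to 1; at the morula stage the 8 rises became 4 without a filter and 4 at 5 FPKM (4 to 9), and the 1 fall 0 under scaling and 0 by voom (0 to 1). For the regulators at the 8-cell stage the 0 rises became 1 under scaling (0 to 2) and the 0 falls 1 by voom (0 to 4, 4 without TMZ library B); at the morula stage the 7 falls became 4 at 5 FPKM and 2 under scaling (1 to 4), and the 0 rises 0 to 1. Except where the filter leaves fewer genes tested or a library is left out, the cause was not tested. A fit that leaves out a library assumes that the lone one varies like the other groups.

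The replicate block at the morula stage gave 4 rises and 1 fall among other 2-cell genes, 9 and 1 for the oocyte list and 5 falls and 0 rises for the regulators, with 1989 calls in all against 1733. The numbers only name the libraries: the deviations of same-numbered libraries correlated at 0.08. At the 8-cell stage no paired analysis was possible because the TMZ columns carry no numbers.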
